A study of Mus musculus with 8 samples.

Results

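The genes described here are 32 mouse genes of cholesterol and fatty acid synthesis, listed by name, with earlier results of these data known. They are 17 enzymes of the sterol pathway, 6 genes for its regulators and for sterol transfer, and 9 enzymes that make, desaturate or elongate fatty acids. All 32 were found among the 23284 genes of the deposited table. The cells were P19, a mouse embryonal carcinoma line that is pluripotent and grows in medium with fetal bovine serum. They received siRNA against Upf3a, or a control siRNA, and a day later all of them, controls included, were given actinomycin D, which blocks transcription. RNA was taken 0, 15, 105 and 225 min afterwards, which gives 8 conditions, each listed in the labels with 2 cultures and deposited as 1 FPKM value per gene (fragments per kilobase of transcript, scaled to the sequencing depth). UPF3A is a paralogue of UPF3B, a factor of nonsense-mediated mRNA decay, and the series was made to examine transcript stability after its loss.

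Cells make cholesterol from acetyl-CoA through mevalonate, isoprenoid diphosphates, squalene and lanosterol, and make fatty acids from acetyl-CoA through malonyl-CoA. Most enzymes of both routes are under the sterol regulatory element-binding proteins, the transcription factors encoded by Srebf1 and Srebf2. SCAP escorts these factors from the endoplasmic reticulum to the Golgi, where proteases release their active part, and the INSIG proteins hold SCAP back when sterols are plentiful.

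Upf3a, the targeted gene, stood at 4.68 ± 0.47 FPKM in the Upf3a siRNA arm and 14.1 ± 0.60 FPKM in the control arm (SD over 4 times). This is 33.1% of control and lower at all 4 times. With 4 pairs of values the exact permutation of signs, two-sided, gave p = 0.125, the smallest it can give. Its paralogue Upf3b was also lower at all 4 times, at 10.7 ± 2.44 FPKM against 13.45 ± 3.34 FPKM (SD over 4 times), 79.6% of control. Upf3b fell by 0.30 on the log2 scale (limma test described below, adjusted p = 0.0065). Its part in the differences below was not tested. Summed FPKM climbed over the course: at 0, 15, 105 and 225 min it was 537437, 548042, 662435 and 923333 in the Upf3a siRNA arm, against 562848, 537350, 686647 and 880304 in the control arm. Between 10832 and 11600 genes per condition stood at 1 FPKM or more. The number of reads behind the values is unknown. The 8 pluripotency markers, Pou5f1, Sox2 and Nanog among them, were all at 1 FPKM or more on average, with summed levels of 2550 to 4275 FPKM in the Upf3a siRNA arm and 2075 to 3438 FPKM in the control arm. Summed neural markers stood at 48.1 to 64.4 FPKM and 56.3 to 78.4 FPKM in the same order of arms (3 of 5 genes at 1 FPKM or more), and fibroblast and muscle markers at 12.8 to 22.2 FPKM and 14.5 to 24.5 FPKM (4 of 6). Primitive endoderm markers reached at most 2.81 and 2.94 FPKM (1 of 5 at 1 FPKM or more), hepatocyte markers 0.22 and 0.21 FPKM and adipocyte markers 0.11 and 0.12 FPKM, with none of the last 2 lists' genes at 1 FPKM on average and Lep listed at 0 in all 8 conditions. The arms' summed ranges overlapped in every list, but single markers differed by more than most of the genes described below. By the limma test described below, 7 of the 8 pluripotency markers rose and Sox2 was not called; Tdgf1 stood at 218% of control, Utf1 at 198%, Dnmt3b at 159%, Nanog at 156% and Lin28a at 135%, and for these 5 the arms did not overlap. Of the 3 neural markers tested 2 fell, Elavl3 to 52.7% and Tubb3 to 87.4% of control, and of the 4 fibroblast and muscle markers tested Col1a2 fell, to 59.3%. The part of these markers in the differences below was not tested.

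Sterol synthesis genes were lower after Upf3a siRNA, most of them by modest amounts. Of the 32 genes, 24 fell and 2 rose (Mvk and Elovl6), and 6 did not pass the test; 22.3% of all 11452 genes tested were called lower and 26.1% higher. The median log2 difference, Upf3a siRNA minus control siRNA, was -0.21 over the 32 genes and 0.00 over all genes tested (0.0046 before rounding). The 6 regulators and sterol transfer genes all fell, as did 14 of the 17 sterol enzymes, whereas 4 of the 9 fatty acid enzymes fell, 1 rose and 4 were not called. The difference between these groups of genes was not tested. In bulk RNA, fewer cells that express a gene and less of its RNA per cell cannot be told apart.

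The test was limma on log2(FPKM + 1) with time as a factor, over genes with a mean of 1 FPKM or more, with Benjamini-Hochberg adjusted p below 0.05 over all of them; all 32 genes passed that filter. Each condition has a single value, so the error is the disagreement between times, not between cultures, and a difference between the transfections cannot be told apart from the siRNA. Scaled to ribosomal protein genes, 14 of the 32 genes were lower and 4 higher, and of all genes 1243 were lower and 3870 higher, against 2557 and 2986 as deposited. The genes that lost their call were Hmgcs1, Pmvk, Mvd, Sqle, Cyp51, Srebf2, Scap, Insig2, Fads1 and Fads2, and those that gained one were Ebp and Fasn. Without the time term, a single gene of the 32 was called (Hsd17b7, lower), against 129 lower and 358 higher of all 11452 genes.

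**Figure D1:**
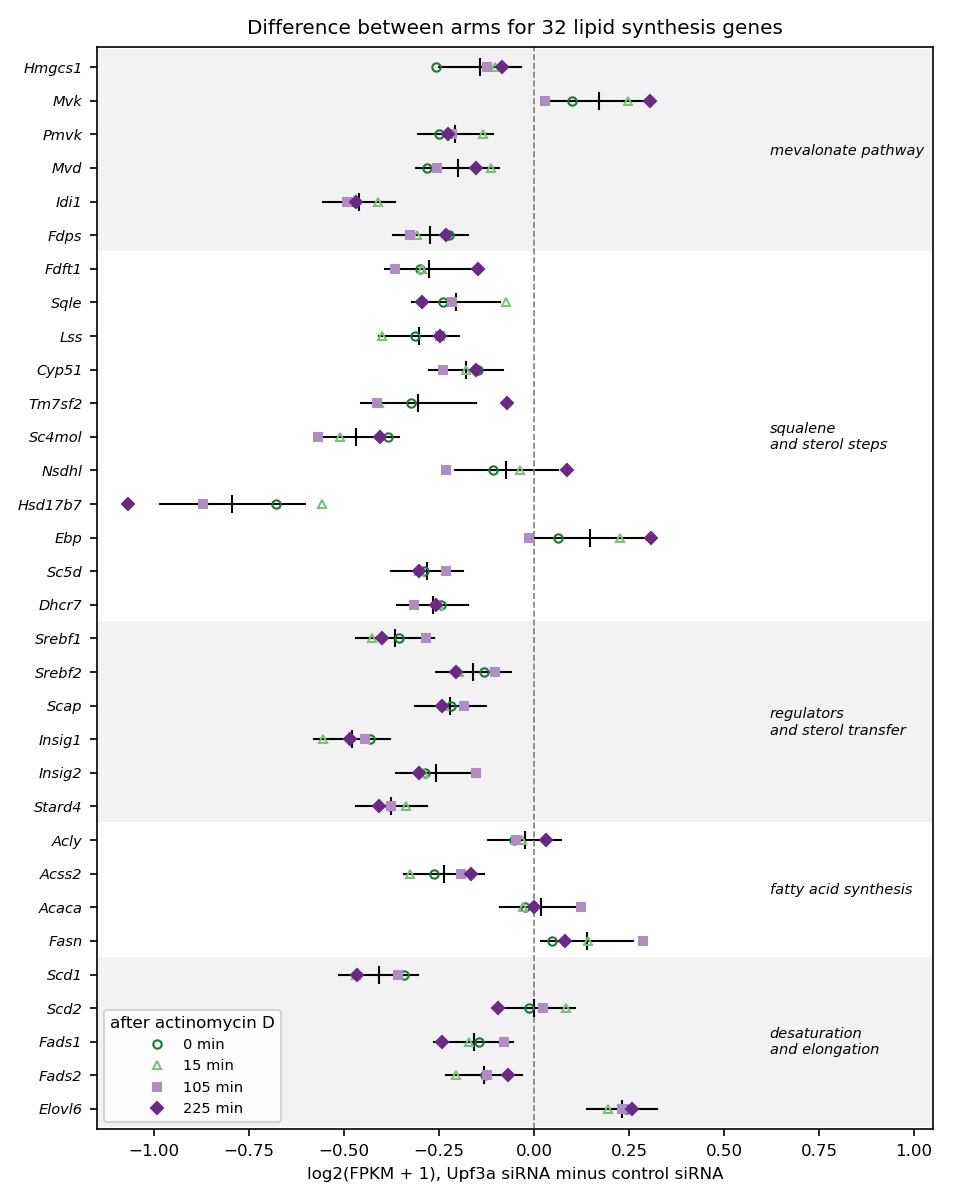
Difference between the Upf3a siRNA and control siRNA arms for each of the 32 genes, in log2(FPKM + 1), grouped by role. Symbols are the 4 times after actinomycin D, the vertical tick is the fitted difference and the bar its 95% confidence interval; Hsd17b7 stands furthest to the left at -0.79, and Mvk and Elovl6 are the 2 genes called higher.

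The shift was already present at 0 min, and its median changed little over time. The median log2 ratio of the 32 genes was -0.25 at 0 min, -0.22 at 15 min, -0.22 at 105 min and -0.22 at 225 min, with 28, 27, 27 and 26 of the 32 below 0. Over all genes tested the same medians were -0.01, 0.02, 0.01 and 0.01. For the sterol enzymes alone the medians were -0.26, -0.25, -0.25 and -0.23, and for the fatty acid enzymes -0.05, -0.03, -0.05 and -0.07. Of the 32 genes, 24 were lower at all 4 times, against 28.6% of all genes tested. Another 3 were higher at all 4 times, against 3640 of the 11452 genes tested. For 9 of the 32 (Idi1, Fdft1, Cyp51, Sc4mol, Hsd17b7, Sc5d, Srebf1, Insig1 and Elovl6) the 4 values of one arm did not overlap the 4 of the other, against 13.7% of all genes tested. The authors' own confidence limits within a condition are wide beside these differences, the upper limit lying a median of 28.5% above the value (25.1% to 77.3%). They lay apart between arms, with the Upf3a siRNA arm lower, at 1 or more times for 1 of the 32 genes (Hsd17b7), against 0.908% of all genes tested.

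**Figure D2:**
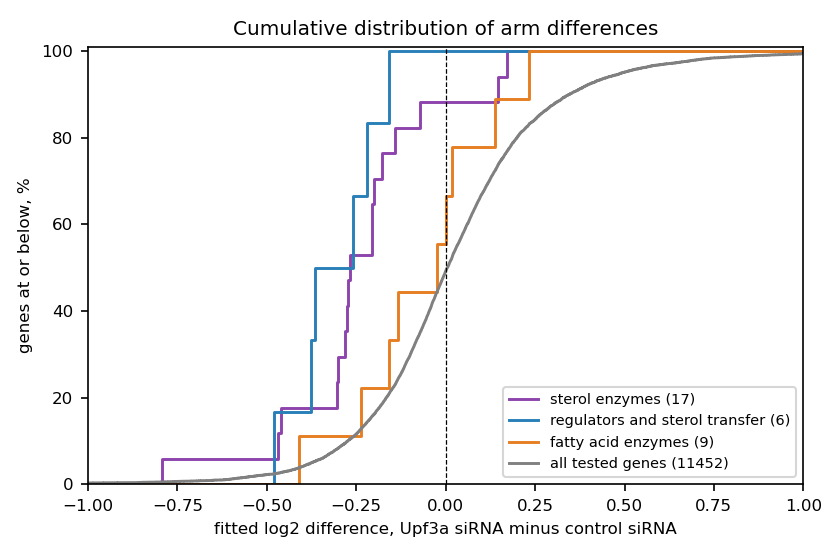
Cumulative share of genes (%) against the fitted log2 difference, Upf3a siRNA minus control siRNA, for 17 sterol enzymes, 6 regulators and sterol transfer genes, 9 fatty acid enzymes and all 11452 genes tested. The curves of the sterol enzymes (median -0.27) and of the regulators (median -0.31) lie left of that of all genes, and that of the fatty acid enzymes (median -0.02) runs nearer to it.

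In the mevalonate pathway, 5 of 6 genes fell and 1 rose, with a median log2 difference of -0.20. Idi1 (chr13:8885501-8892451, plus strand, GENCODE vM21 on GRCm38, as for the other gene positions), the isomerase that balances both isoprenoid diphosphates, had 63.8, 69.8, 66.5 and 79.0 FPKM at 0, 15, 105 and 225 min after Upf3a siRNA, against 88.9, 93.1, 93.8 and 109.7 FPKM after control siRNA. Its highest value in the Upf3a siRNA arm lay under the lowest control value, and it fell by 0.46 ± 0.04 on the log2 scale (SE, limma adjusted p = 0.000191). Fdps (chr3:89093588-89101959, minus strand), which makes farnesyl diphosphate, the branch point to sterols and prenylated proteins, had 129, 123, 146 and 174 FPKM after Upf3a siRNA, against 151, 153, 184 and 204 FPKM after control siRNA. Fdps values climbed with time in both arms and the arms overlapped, but at each time the Upf3a siRNA value was the lower, and it fell by 0.27 ± 0.04 (SE, limma adjusted p = 0.00186).

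Pmvk and Mvd, the kinase and the decarboxylase that follow mevalonate kinase, fell by 0.21 and 0.20, and Hmgcs1, which makes HMG-CoA, fell by 0.14 (limma adjusted p = 0.0378). Mvk, mevalonate kinase, stood the other way, with 18.98, 21.3, 24.0 and 32.4 FPKM after Upf3a siRNA, against 17.6, 17.8, 23.5 and 26.0 FPKM after control siRNA. It was higher at all 4 times though the arms overlapped, and it rose by 0.17 ± 0.06 (SE, limma adjusted p = 0.0406). The calls of Hmgcs1 and Mvk are marginal: without 0 min their log2 differences were -0.10 and 0.19 (adjusted p = 0.131 and 0.0663), without 15 min -0.16 and 0.14 (0.0825 and 0.143), Hmgcs1 was -0.15 without 105 min (0.0911) and Mvk 0.12 without 225 min (0.122).

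From squalene to cholesterol, 9 of 11 genes fell and 2 were not called, with a median log2 difference of -0.28. Hsd17b7 (chr1:169949535-169969241, minus strand), the ketoreductase of the complex that strips methyl groups from the sterol ring, had 4.87, 5.31, 4.43 and 3.95 FPKM after Upf3a siRNA, against 8.40, 8.28, 8.94 and 9.37 FPKM after control siRNA. The Upf3a siRNA value was the lower at every time, with a mean of 53.0% of control. The authors' limits did not overlap at 2 of the 4 times and overlapped at the others. Hsd17b7 fell by 0.79 ± 0.08 (SE, limma adjusted p = 0.000346), the largest difference of the 32 genes; it was also the gene with the lowest control mean, 8.75 ± 0.51 FPKM (SD over 4 times).

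Sc4mol (now Msmo1; chr8:64718139-64733792, minus strand), the methylsterol oxidase that acts first in the same complex, had 24.2, 25.8, 22.6 and 20.1 FPKM after Upf3a siRNA, against 31.9, 37.2, 33.9 and 27.0 FPKM after control siRNA. The arms did not overlap, and it fell by 0.47 ± 0.05 (SE, limma adjusted p = 0.000338). Nsdhl, the dehydrogenase between these enzymes, was not called: it averaged 20.5 ± 4.22 FPKM in the Upf3a siRNA arm and 21.5 ± 3.31 FPKM in the control arm (SD over 4 times), a log2 difference of -0.07 with a 95% interval of -0.21 to 0.06. Within this complex the log2 differences thus ran from -0.79 to -0.07.

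Of the earlier steps, squalene synthase Fdft1 fell by 0.28, squalene epoxidase Sqle by 0.21, lanosterol synthase Lss by 0.30 and the lanosterol demethylase Cyp51 by 0.18. Sqle had 40.6, 45.7, 38.3 and 19.1 FPKM after Upf3a siRNA, against 48.1, 48.2, 44.6 and 23.7 FPKM after control siRNA. It was lower at each time, and the arms overlapped because the change over time was larger than the gap between them. Of the late steps, the sterol desaturase Sc5d fell by 0.28 and Dhcr7, the reductase of the final step, by 0.27. Ebp, the sterol isomerase, was not called, with a log2 difference of 0.15 (95% interval 0.00 to 0.29, limma adjusted p = 0.0840).

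Tm7sf2 (chr19:6062821-6068373, minus strand), a sterol reductase, had 12.8, 13.2, 18.1 and 27.1 FPKM after Upf3a siRNA, against 16.3, 17.9, 24.4 and 28.5 FPKM after control siRNA. The gap was clear at the first 3 times and nearly closed at 225 min, the arms overlapped, and the gene fell by 0.30 ± 0.06 (SE, limma adjusted p = 0.00709). Its locus in the table is shared with 1110014N23Rik, which averaged 26.3 ± 5.62 FPKM in the Upf3a siRNA arm and 16.8 ± 1.75 FPKM in the control arm (SD over 4 times) and rose by 0.60 (limma adjusted p = 0.000455), so how reads were split between both genes bears on this value and was not tested. In all, 7 of the 32 genes share a locus with another gene (Fdft1, Lss, Tm7sf2, Srebf1, Srebf2, Acss2 and Scd2), and 9 overlap an exon on the other strand (Hmgcs1, Idi1, Fdft1, Lss, Cyp51, Srebf1, Scap, Acss2 and Elovl6). No source used here says whether reads were counted by strand, so reads of such pairs may not be told apart. Of the other partners in the table that were tested, Gss (beside Acss2) fell by 0.39, and Ctsb, 4930483K19Rik, Akap9, Rai1 and Ggt7 were not called.

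**Figure D3:**
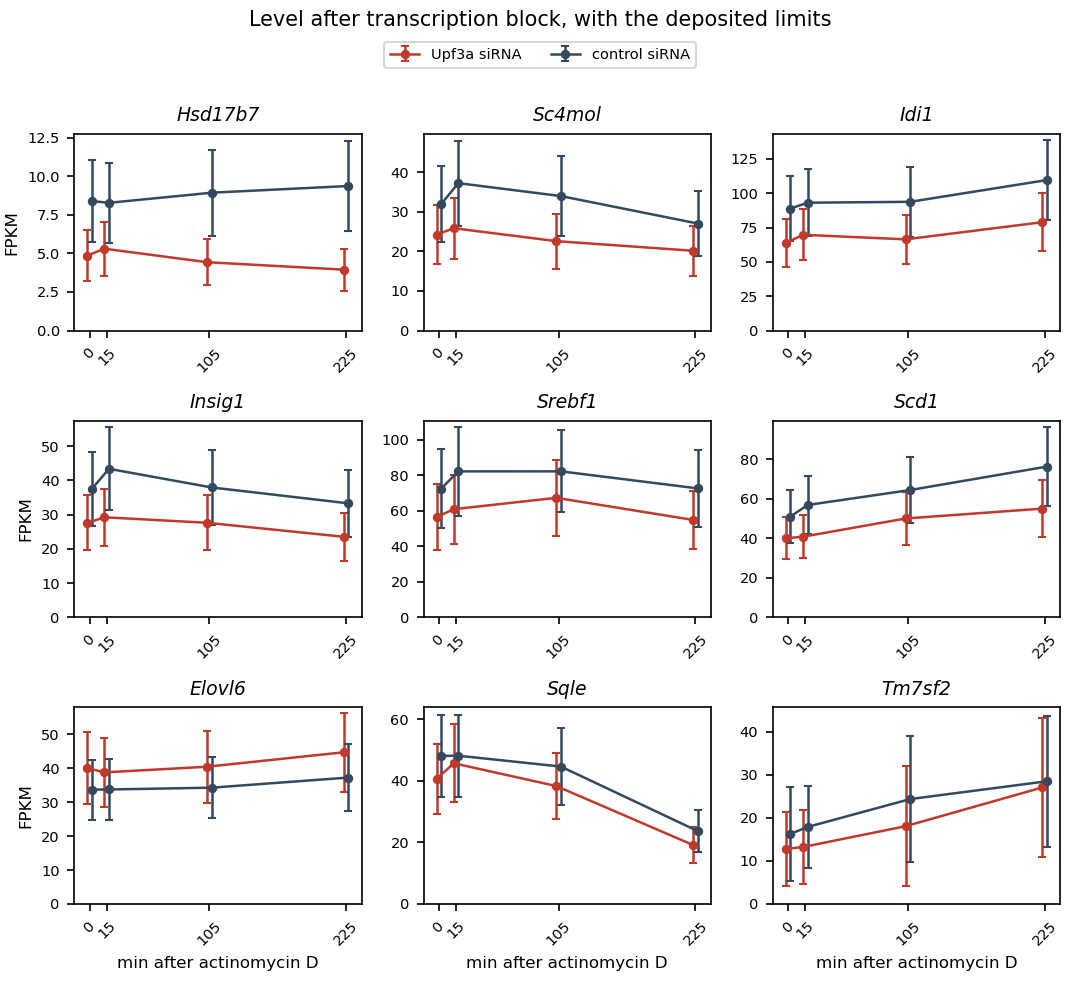
FPKM of 9 of the genes against min after actinomycin D in the Upf3a siRNA arm and the control siRNA arm. Points are the deposited values and bars the authors' confidence limits, whose level is not stated; the limits of Hsd17b7 lie apart at 2 times, and the limits of the other genes shown overlap at all 4.

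All 6 regulators and sterol transfer genes fell, with a median log2 difference of -0.31. Insig1 (chr5:28071363-28078662, plus strand), which holds SCAP in the endoplasmic reticulum and is itself a target of the pathway it restrains, had 27.6, 29.2, 27.6 and 23.5 FPKM after Upf3a siRNA, against 37.5, 43.4, 37.9 and 33.3 FPKM after control siRNA. The arms did not overlap, and Insig1 fell by 0.48 ± 0.04 (SE, limma adjusted p = 0.000201). Insig2, its relative, had 12.2, 11.7, 12.2 and 13.7 FPKM after Upf3a siRNA, against 15.1, 14.6, 13.7 and 17.1 FPKM after control siRNA. Insig2 was lower at every time with the arms just touching, and fell by 0.26 ± 0.04 (SE, limma adjusted p = 0.00298).

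Srebf1 (chr11:60199089-60222581, minus strand), whose products act mainly on fatty acid genes, had 56.4, 60.9, 67.3 and 54.8 FPKM after Upf3a siRNA, against 72.4, 82.2, 82.2 and 72.6 FPKM after control siRNA. The arms did not overlap, and Srebf1 fell by 0.37 ± 0.04 (SE, limma adjusted p = 0.000602). Srebf2 (chr15:82147181-82205379, plus strand), whose product acts mainly on cholesterol genes, had 95.05, 95.8, 125.5 and 150.9 FPKM after Upf3a siRNA, against 104, 110.0, 135 and 174 FPKM after control siRNA. Values of Srebf2 climbed with time in both arms and overlapped, with the Upf3a siRNA value the lower at each time, and it fell by 0.16 ± 0.04 (SE, limma adjusted p = 0.0171).

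Scap had 16.5, 17.5, 24.0 and 28.6 FPKM after Upf3a siRNA, against 19.3, 20.8, 27.4 and 34.0 FPKM after control siRNA, and fell by 0.22 ± 0.04 (SE, limma adjusted p = 0.00353). Stard4, a soluble protein that carries sterol between membranes, had 12.02, 13.6, 12.8 and 8.78 FPKM after Upf3a siRNA, against 15.9, 17.4, 16.9 and 11.96 FPKM after control siRNA, and fell by 0.38 ± 0.04 (SE, limma adjusted p = 0.00039). Both genes were lower at all 4 times, and in both the arms overlapped because of the change over time. Scaled to ribosomal protein genes, Srebf2, Scap and Insig2 were no longer called (adjusted p = 0.36, 0.0813 and 0.0513), and Srebf2 was not called without 15 min (log2 difference -0.15, adjusted p = 0.0777) or scaled to the FPKM total (-0.15, 0.0544).

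Among the fatty acid enzymes, the genes of the core pathway showed no common direction. Of the 4 that supply acetyl-CoA and build the chain, Acss2 fell and 3 were not called, with a median log2 difference of 0.00 (-0.0036 before rounding). Acss2 (chr2:155517948-155585724, plus strand), which makes acetyl-CoA from acetate, had 17, 16.4, 21.5 and 27.8 FPKM after Upf3a siRNA, against 20.6, 20.9, 24.7 and 31.3 FPKM after control siRNA. It was lower at each time with the arms overlapping, and fell by 0.24 ± 0.05 (SE, limma adjusted p = 0.00449).

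Fasn (chr11:120805846-120824547, minus strand), fatty acid synthase, had 145.5, 157, 199 and 206 FPKM after Upf3a siRNA, against 140.8, 142, 163 and 195 FPKM after control siRNA. Fasn stood higher at all 4 times, with the arms overlapping, without passing the test, with a log2 difference of 0.14 (95% interval 0.02 to 0.26, limma adjusted p = 0.0580). Acly, which makes acetyl-CoA from citrate, had a log2 difference of -0.02 (95% interval -0.12 to 0.07), and Acaca, which makes malonyl-CoA, of 0.02 (-0.09 to 0.12). These 2 intervals do not reach the median of the 32 genes, -0.21; the differences turned to 0.06 for Acly scaled to ribosomal protein genes, and to -0.01 and -0.03 for Acaca under median-of-ratios and quantile scaling.

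Of the 5 desaturases and elongases, 3 fell and 1 rose, with a median log2 difference of -0.13. Scd1 (chr19:44394455-44407879, minus strand), a stearoyl-CoA desaturase that introduces the first double bond, had 40.0, 40.8, 49.96 and 55.0 FPKM after Upf3a siRNA, against 50.9, 56.8, 64.4 and 76.2 FPKM after control siRNA. It was lower at each time, the arms overlapping through the climb over time, and fell by 0.41 ± 0.04 (SE, limma adjusted p = 0.000424). Scd2, the neighbouring gene for a second desaturase of the same kind, averaged 226 ± 9.17 FPKM in the Upf3a siRNA arm and 226 ± 15.5 FPKM in the control arm (SD over 4 times), a log2 difference of 0.00 with a 95% interval of -0.11 to 0.11. Both genes code for close relatives, and no source used here says how reads that match both were counted.

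Elovl6 (chr3:129532355-129638495, plus strand), which elongates the palmitate that FASN makes, had 40.1, 38.8, 40.5 and 44.7 FPKM after Upf3a siRNA, against 33.7, 33.8, 34.3 and 37.3 FPKM after control siRNA. Every value in the Upf3a siRNA arm exceeded every control value, and Elovl6 rose by 0.23 ± 0.04 (SE, limma adjusted p = 0.00282). Fads2, the desaturase that starts the conversion of dietary polyunsaturated fatty acids, had 77.7, 78.9, 106 and 142 FPKM after Upf3a siRNA, against 85.1, 91.1, 116 and 149 FPKM after control siRNA. Fads2 was lower at each time with the arms overlapping, and fell by 0.13 ± 0.04 (SE, limma adjusted p = 0.0371), and Fads1, which acts later in the same route, fell by 0.16 (limma adjusted p = 0.0214). Both calls are marginal: Fads2 had adjusted p = 0.0908, 0.161 and 0.0966 without 0, 15 or 105 min (log2 differences -0.13, -0.11 and -0.13), and Fads1 0.0564, 0.0784 and 0.0598 without 0, 15 or 225 min (-0.16, -0.15 and -0.13).

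Since FPKM is per length, levels can be ordered between genes. In the control arm Scd2 had the highest mean level (226 FPKM), followed by Fdps (173 FPKM), Fasn (160.1 FPKM), Acly (133 FPKM), Srebf2 (131 FPKM) and Fads2 (110.4 FPKM). At the low end were Hsd17b7 (8.75 FPKM), Insig2 (15.1 FPKM), Stard4 (15.6 FPKM) and Sc5d (15.7 FPKM), and the median of the 32 genes was 35.8 FPKM. These are means over the 4 times, so the order mixes the level with its change after the block. At 0 min in the control arm Idi1 (88.9 FPKM) stood above Fads2 (85.1 FPKM), and Tm7sf2 (16.3 FPKM) below Sc5d (16.55 FPKM). Neighbours such as Acly and Srebf2, or Insig2, Stard4 and Sc5d, differed by less than their SD over the 4 times.

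The promoters of some of these genes are given because the pathway is classically read through promoter elements. Their part in the differences between arms was not tested. Given are genes with the largest falls of their role groups (Hsd17b7, Sc4mol, Idi1 and Insig1) and Elovl6, which rose. Hmgcs1 was added as the one promoter with an exact match to the letters searched for the sterol regulatory element. This choice was made after the values were seen. Each sequence is RefSeq on GRCm38.p6, from 250 bases before the start site to 50 after it, printed 5′ to 3′ along the gene's strand, with CCAAT or its reverse complement ATTGG in capitals and, in Hmgcs1, also TCACCCCAC, the match to TCACNCCAC. The intervals are chr1:169969156-169969455 (minus strand) for Hsd17b7, chr8:64733529-64733828 (minus) for Sc4mol, chr13:8885356-8885655 (plus) for Idi1, chr5:28071162-28071461 (plus) for Insig1, chr13:119690101-119690400 (plus) for Hmgcs1 and chr3:129532136-129532435 (plus) for Elovl6.
Hsd17b7: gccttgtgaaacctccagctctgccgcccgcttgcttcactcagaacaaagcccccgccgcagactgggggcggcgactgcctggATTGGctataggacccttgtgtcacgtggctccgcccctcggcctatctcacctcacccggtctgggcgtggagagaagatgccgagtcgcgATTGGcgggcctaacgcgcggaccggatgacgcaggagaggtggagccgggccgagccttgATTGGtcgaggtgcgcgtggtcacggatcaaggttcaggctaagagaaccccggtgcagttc
Sc4mol: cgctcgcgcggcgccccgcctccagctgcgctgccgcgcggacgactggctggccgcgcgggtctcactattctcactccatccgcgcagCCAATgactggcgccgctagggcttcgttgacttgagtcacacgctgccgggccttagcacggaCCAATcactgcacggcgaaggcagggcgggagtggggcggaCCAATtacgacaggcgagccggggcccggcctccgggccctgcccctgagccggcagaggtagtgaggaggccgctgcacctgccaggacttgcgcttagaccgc
Idi1: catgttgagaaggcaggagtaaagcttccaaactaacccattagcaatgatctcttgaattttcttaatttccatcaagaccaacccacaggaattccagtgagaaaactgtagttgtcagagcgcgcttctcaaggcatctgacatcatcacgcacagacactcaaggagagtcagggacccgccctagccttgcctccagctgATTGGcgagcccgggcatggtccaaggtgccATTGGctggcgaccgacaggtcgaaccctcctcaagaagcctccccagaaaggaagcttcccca
Insig1: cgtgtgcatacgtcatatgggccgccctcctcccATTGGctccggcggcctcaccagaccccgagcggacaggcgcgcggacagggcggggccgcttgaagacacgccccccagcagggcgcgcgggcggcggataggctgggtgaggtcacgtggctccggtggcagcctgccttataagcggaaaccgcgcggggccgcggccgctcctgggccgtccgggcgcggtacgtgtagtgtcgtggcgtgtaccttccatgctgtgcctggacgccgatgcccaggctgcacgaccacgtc
Hmgcs1: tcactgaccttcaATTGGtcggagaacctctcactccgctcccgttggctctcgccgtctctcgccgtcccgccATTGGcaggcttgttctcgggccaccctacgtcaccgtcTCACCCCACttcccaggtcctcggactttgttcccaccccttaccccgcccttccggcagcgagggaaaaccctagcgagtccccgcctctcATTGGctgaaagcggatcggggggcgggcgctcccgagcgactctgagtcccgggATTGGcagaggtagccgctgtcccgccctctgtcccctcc
Elovl6: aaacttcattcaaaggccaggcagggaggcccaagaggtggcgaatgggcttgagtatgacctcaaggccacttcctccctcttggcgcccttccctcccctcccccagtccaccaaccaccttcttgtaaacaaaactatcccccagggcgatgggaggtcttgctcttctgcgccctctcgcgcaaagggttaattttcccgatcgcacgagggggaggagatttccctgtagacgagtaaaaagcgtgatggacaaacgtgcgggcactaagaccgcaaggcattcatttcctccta

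Counting from the start-site base as 0 to the first base of the motif, Hsd17b7 has CCAAT boxes (the motif bound by NF-Y) at -165, -73 and -12, and Sc4mol at -160, -96 and -55. Idi1 has them at -45 and -14, Insig1 at -216, and Hmgcs1 at -237, -176, -45 and 10, with the sterol element at -137. No CCAAT was found in this window of Elovl6. RefSeq promoters were matched for 25 of the 32 genes, in 33 windows with alternative starts; the other genes were Fdps, Fdft1, Sqle, Stard4, Scd1, Scd2 and Fads1. On either strand, CCAAT was present in 22 of the 33 windows (66.7%), against 37.4% of all 32851 promoters of the table. GGGCGG, the GC box bound by Sp1, was present in 25 (75.8%), against 35.7%, and TCACNCCAC in 1 (3.03%), against 1.24%; the 3 motifs were searched without regard to overlap between them. Per gene, CCAAT was found for 21 of 25 (84.0%), against 41.1% of all genes in the promoter table. Their median log2 difference was -0.24, against -0.06 for the 4 without it. With windows cut to 150 bases before the start it was -0.22 for the 20 with it, against -0.13 for the 5 without it. Split by the GC box, the medians were -0.24 for the 21 genes with it and 0.08 for the 4 without it. In the cut windows they were -0.25 for 20 genes and 0.02 for 5. Split by TCACNCCAC, they ran the other way, -0.14 for the 1 gene with it and -0.21 for the 24 without it. In the full windows the 4 genes without CCAAT were Scap, Acaca, Fads2 and Elovl6. The 4 without the GC box were Pmvk, Acaca, Fasn and Elovl6. Apart from Scap and Pmvk these are fatty acid enzymes, so the splits by motif partly repeat the split by pathway. Only exact matches were counted, so sites that differ from these letters were left out. All promoters include those of genes that did not pass the filter of a mean of 1 FPKM, which all 32 genes passed. The shares among the genes tested were not computed. A match is a description of letters, and no test was run on these shares or medians.

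The next question was whether these mRNAs were lost faster or slower after the block when Upf3a was knocked down. None of the 32 genes was called for a difference in slope between arms by limma with Benjamini-Hochberg adjustment, against 0.00873% of all genes tested (1 of 11452); at an unadjusted p under 0.05 the counts were 1 of the 32 and 762 of all genes, and with a trended, robust variance model 0 and 6 were called. With 2 residual degrees of freedom the intervals per gene are wide. The median slope difference, Upf3a siRNA minus control siRNA, was 0.00 log2 units per hour over the 32 genes and over all genes (0.0033 in each before rounding).

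Hsd17b7 had the most negative slope difference, -0.12 per hour (95% interval -0.20 to -0.05, limma adjusted p = 0.647, unadjusted p = 0.0064). Its level at 225 min was 81.2% of that at 0 min after Upf3a siRNA, against 112% after control siRNA, and over its 13 alternatives the adjusted p ran from 0.366 to 1. Tm7sf2 had the most positive, 0.07 per hour (95% interval -0.01 to 0.16, limma adjusted p = 0.757), with 212% and 175% in the same order of arms. The Tm7sf2 value rests on the last sample: without 225 min it was -0.03 per hour. For the remaining 30 genes the slope differences lay between these.

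With both arms in one fit, most of these mRNAs had FPKM values that climbed after the block, more than the median gene did, and the steepest loss was that of Sqle. On the deposited scale, 21 of the 32 genes had a positive slope, against 42.7% of all genes tested, 5 a negative slope, against 38.6%, and 6 were not called; the median slope was 0.12 log2 units per hour, against 0.01 over all genes. All 9 fatty acid enzymes had positive slopes, and of the 17 sterol enzymes 10 had positive and 3 negative slopes. FPKM is scaled to the sequenced fragments, so a slope of 0 is not stability, and the sign of a slope depends on the scale. Summed FPKM at 225 min was 172% of that at 0 min after Upf3a siRNA, against 156% after control siRNA, and the 32 genes had medians of 135% and 136% in the same order of arms, so that 3 and 4 of them grew more than the sum. Scaled to the FPKM total, a setting chosen after seeing the data, 0 of the 32 slopes were positive and 22 negative. Of all 11452 genes, 559 were positive and 8581 negative. The median was -0.08 over the 32 genes, against -0.15 over all genes. Scaled to ribosomal protein genes, 0 of the 32 were positive and 31 negative, against 53 and 10670 of the 11452 genes. The median was -0.17, against -0.23 over all genes. Under quantile normalization 15 were positive and 8 negative, against 5309 and 3784 of the 11452 genes, with a median of 0.04, against 0.03 over all genes.

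Sqle had the steepest negative slope, -0.28 ± 0.04 per hour (SE, limma adjusted p = 0.000231); its level at 225 min was 47.1% of that at 0 min after Upf3a siRNA, against 49.2% after control siRNA. The other negative slopes were those of Stard4 (-0.12), Sc4mol (-0.08), Insig1 (-0.07) and Sc5d (-0.05). At 225 min Stard4 stood at 73.0% of its 0 min level after Upf3a siRNA, against 75.0% after control siRNA, Sc4mol at 83.2%, against 84.6%, and Insig1 at 85.3%, against 88.7%. These 5 slopes rest on the last sample: without 225 min they were -0.08, 0.02, -0.04, -0.03 and -0.03, and none was called (adjusted p = 0.122 to 0.724); Insig1 was not called without 15 min either (-0.05, adjusted p = 0.0568).

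The steepest positive slopes were those of Tm7sf2 (0.24 ± 0.02 per hour, SE, limma adjusted p = 1.9e-05), Fads2 (0.22), Scap (0.21) and Srebf2 (0.19). Fads2 at 225 min stood at 183% of its 0 min level after Upf3a siRNA, against 176% after control siRNA. The regulators lay on both sides, with Scap and Srebf2 among the highest slopes and Insig1 and Stard4 among the lowest, and Srebf1 (-0.02) and Insig2 (0.05) not called.

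**Figure D4:**
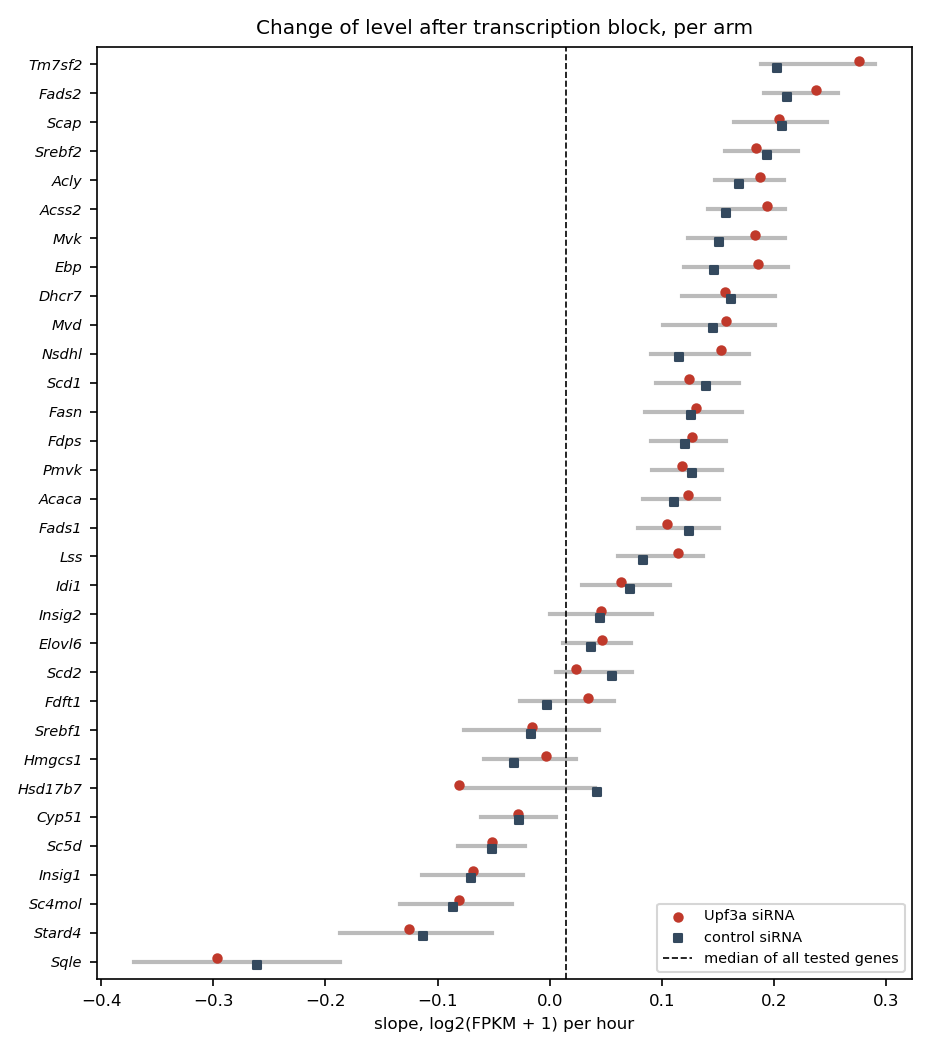
Slope of log2(FPKM + 1) per hour after actinomycin D for the 32 genes, in the Upf3a siRNA arm and in the control siRNA arm, ordered by the common slope; grey bars are the 95% intervals of the common slope and the dashed line the median of all tested genes (0.01). The values of both arms lie close together for most genes, with the widest gaps at Hsd17b7 and Tm7sf2, and Sqle stands apart at the low end.

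Genes of the wider pathway were called in both directions. Of 63 further genes of sterol and lipid metabolism in the table, 52 were tested, of which 16 rose, 11 fell and 25 were not called, with a median log2 difference of 0.02. The called shares, 30.8% higher and 21.2% lower, lie near those of all genes tested (26.1% and 22.3%), and the counts by role are small. By role, 4 of 8 genes of sterol uptake fell and 1 rose, 2 of 3 genes of sterol export rose, 5 of 12 genes of SREBP processing and protein turnover rose and 1 fell, and 7 of 25 other fatty acid and lipid genes rose and 5 fell. Of 4 further sterol synthesis genes, 1 rose and 1 fell.

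Agpat2, an enzyme on the way to phospholipids and triglycerides, averaged 17.9 ± 2.24 FPKM in the Upf3a siRNA arm and 11.8 ± 1.49 FPKM in the control arm (SD over 4 times) and rose by 0.56. Dgat1, which makes triglycerides, averaged 14.0 ± 3.33 and 8.06 ± 1.15 FPKM in the same order and rose by 0.71. Both were called with a log2 difference of at least 0.5 and a mean of 5 FPKM or more. Lrp8 and Mbtps2 were chosen after their values were seen. Lrp8, a lipoprotein receptor, averaged 4.96 ± 0.48 FPKM in the Upf3a siRNA arm and 2.38 ± 0.23 FPKM in the control arm and rose by 0.82, with the authors' limits apart at 3 times. Mbtps2, the membrane protease that makes the second cut in SREBP, averaged 5.99 ± 0.57 and 3.60 ± 0.32 FPKM in the same order and rose by 0.60.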

How the data were processed

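P19 cells in 2 siRNA arms were sampled at 4 times after actinomycin D. Reads were aligned with TopHat2 and quantified with Cufflinks on mm10, per the submitters' processing notes, without versions; which annotation was used is not stated there. The authors deposited 1 FPKM value per gene and condition, with confidence limits and a status field, per the file headers; how the 2 cultures per condition were combined is not stated, and all value columns could be assigned. The status of 3 genes in the table was failed, none of them among the 32.

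Values were taken as log2(FPKM + 1) for genes with a mean of 1 FPKM or more and fitted with limma 3.58.1 in R 4.3.3, eBayes without trend, Benjamini-Hochberg adjusted p below 0.05 over all genes tested. The difference between arms had time as a factor (3 residual degrees of freedom), the slope difference was arm by hours (2), and the common slope had arm as a term (5). A fold change on this scale understates that of low genes. The FPKM is not a count, depth is unknown, and no count test was run. The fits were tested on simulated data. Tables were read with Python 3.11.15. Alternatives were the pseudocount (0.1 or 5), the filter on low values (none or a mean of 5 FPKM), 3 scalings and, chosen after seeing the data, scaling to the FPKM total, a trended robust variance model, each time left out, no time term and each arm alone.

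The 32 genes, the other lists and the tests were chosen with earlier results of these data known. Values in every condition were given for the 2 largest differences per role, for Srebf1, Srebf2, Scap, Insig1, Insig2 and Fasn, for the 2 smallest p of the slope difference and for the 3 steepest slopes; other pathway genes were named at a called log2 difference of at least 0.5 and a mean of 5 FPKM, and some genes of that list are not reported here. Promoters came from RefSeq (GRCm38.p6) and gene positions from GENCODE vM21.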

Additional observations from a re-analysis of the deposited data

How the results depend on the processing

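Cultures could not be paired between arms because the deposited values carry no replicate numbers. The arms were paired by time instead, and the counts without that time term are below. Of the 32 genes, the count higher (2) was 1 with a pseudocount of 0.1, without a filter on low values, and under median-of-ratios or quantile scaling, 4 scaled to ribosomal protein genes or with a trended robust variance model, 0 without the time term, and 1 to 2 with a time left out. The count higher was 3 with a pseudocount of 5 or scaled to the FPKM total. The count lower (24) was 14 scaled to ribosomal protein genes, 21 scaled to the FPKM total and 22 with a pseudocount of 0.1. It was 20 to 23 with a time left out and 1 without the time term. Without that term, 129 of all 11452 genes were lower and 358 higher. The median difference (-0.213) was -0.189 with a pseudocount of 5, -0.243 and -0.273 under median-of-ratios and quantile scaling, -0.13 scaled to ribosomal protein genes, and -0.231 to -0.208 with a time left out. Negative common slopes (5) numbered 8 under quantile scaling, 31 scaled to ribosomal protein genes, 22 scaled to the FPKM total (chosen after seeing the data), 1 in the control arm alone and 0 to 5 with a time left out. Positive slopes (21) numbered 15 under quantile scaling, 0 scaled to ribosomal protein genes or to the FPKM total, and 18 to 21 with a time left out. The counts of all genes under these scalings are given with the slopes above. No slope difference of the 32 genes was called under any alternative run. Differences that changed sign, none of them called, were Acaca (-0.0118 median-of-ratios, -0.0336 quantile, -0.0181 to 0.0334 with a time left out), Scd2 (-0.03, -0.0758 and -0.0276 to 0.0316 in the same order), and Nsdhl (0.00839) and Acly (0.06) scaled to ribosomal protein genes. Common slopes that changed sign were Sc5d (0.000419, quantile, where 5 of the 21 positive slopes also turned negative), Stard4 (0.0168 without 225 min, -0.159 without 0 min) and, scaled to ribosomal protein genes, all 21 positive ones, among them Fads2 (-0.0658), Tm7sf2 (-0.0393), Scap (-0.0751) and Srebf2 (-0.102); scaled to the FPKM total 18 of the 21 did, Srebf2 to -0.00751, and the slope difference of Tm7sf2 was -0.0335 without 225 min. The cause of these changes was not tested, except that leaving out a time or the time term leaves fewer values or more residual spread by construction. Of the other named differences between arms, 429 values under alternatives kept direction and call, 58 lost the call and 6 gained it. The limits are the single value per condition, the unknown depth and the shared loci; CCAAT was found in 20, GGGCGG in 24 and TCACNCCAC in 1 of 33 windows cut to 150 bases before the start, against 28.6%, 32.2% and 0.834% of all promoters.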
